A study of Drosophila melanogaster with 6 samples.

Results

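The transcripts described here were those with the brightest array signal in wild-type midguts of adult *Drosophila*. A gene was a member if the mean of its 3 wild-type arrays was at least 11 on the log2 scale, and 80 of the 12997 gene entries were members. In all, 126 entries reached this level, and 46 of them were left out by gene family. The families left out were ribosomal proteins under their standard names, vacuolar ATPase subunits, Jonah proteases, trypsins, cytochrome P450s, glutathione S-transferases, proteasome subunits, Npc2 proteins, lysozymes and maltases. Whole midguts of 7-day-old females were dissected and pooled, and 3 samples of wild type and 3 of *Apc1Q8* homozygotes (*Apc1-/-*, called *Apc1* mutants here) were hybridized, 1 sample per array. *Apc1Q8* is a null allele carried by the whole animal, so Apc1 was absent throughout development and not from the adult gut alone. The paper's methods give Canton S as the control strain and the description of the deposited data gives w1118, so strain background and the *Apc1* allele cannot be told apart. The samples are not stated to be separate crosses, and the p-values measure the spread between these samples, which may be technical.

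The midgut epithelium of the fly consists mostly of enterocytes, which secrete digestive enzymes and take up the products, together with stem cells, enteroblasts and hormone-secreting enteroendocrine cells. The epithelium is lined by the peritrophic matrix, a sheet of chitin and chitin-binding proteins between the cells and the food. Apc1 is part of the complex that destroys the β-catenin Armadillo and so restrains Wingless signaling. Abundant midgut transcripts include those of digestive enzymes and those that many cells need in quantity, such as elongation factors and actin.

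Each value is the log2 signal of 1 probe set, a group of short oligonucleotides matching a transcript. Brightness depends on the probes as well as on the RNA, so values of different genes are not compared as amounts. With medians of 2.52 to 2.59 and maxima of 14.20 to 14.25 over the 6 arrays, the members lay near the top of the scale. The transcript of the mutated gene, listed as *Apc*, did not separate the genotypes, as it averaged 6.36 ± 0.41 (SD, n = 3) in wild type against 6.49 ± 0.41 in the mutants (adjusted p = 0.782, limma). The tissue was checked on 6 enterocyte markers, all of which were detected, with summed log2 values of 53.5 to 54.1 in wild type and 54.2 to 55.6 in mutants. Of these, 2 were higher in mutants and none was lower (limma, adjusted p under 0.05). Markers of tissues next to the midgut were also summed. The summed values of 7 fat body markers were 30.0 to 35.7 in wild type and 25.5 to 27.8 in mutants. Those of 9 of 11 ovary and eggshell markers were 35.4 to 47.4 and 23.0 to 31.9, and those of 5 of 6 Malpighian tubule markers 23.9 to 29.6 and 18.4 to 21.8. In each of these lists the highest wild-type sum was that of replicate 2. Of these markers, 2 of the fat body and 2 of the tubules were called lower, and none of the ovary and eggshell was called by limma (4 at an unadjusted p under 0.05). The fat body, ovary and tubule lists had 3, 4 and 1 markers, in that order, under 3 in both genotypes, close to the array medians. The part of these tissues in the results below was not tested. In whole tissue, fewer cells of a type and less RNA per cell cannot be told apart.

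Because members were picked for a high wild-type value, and that value enters the difference between the genotypes, the choice itself favours members that are lower in mutants. The counts of higher and lower members are given for this reason as a description. The level in the mutants did not enter the limit of 11, and entered the rule only in the 2 members with a second probe set, where the brighter over all 6 arrays was taken. Of the 80 members, 49 also had a mutant mean of at least 11, 14 lay between 10 and 11, 5 between 9 and 10, and 12 under 9. Of these, *CG17192* and *CG6295* lay under the array medians. The median difference, mutant minus wild type, was -0.13 over the members and 0.01 over all entries. It lay within 0.5 in 50 of the 80 members. The differences ran from -8.97 to 1.04, with a mean of -0.85. Centring each array on its median lowered all differences by 0.11, so that uncalled differences between 0 and that size turned negative.

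**Figure D1:**
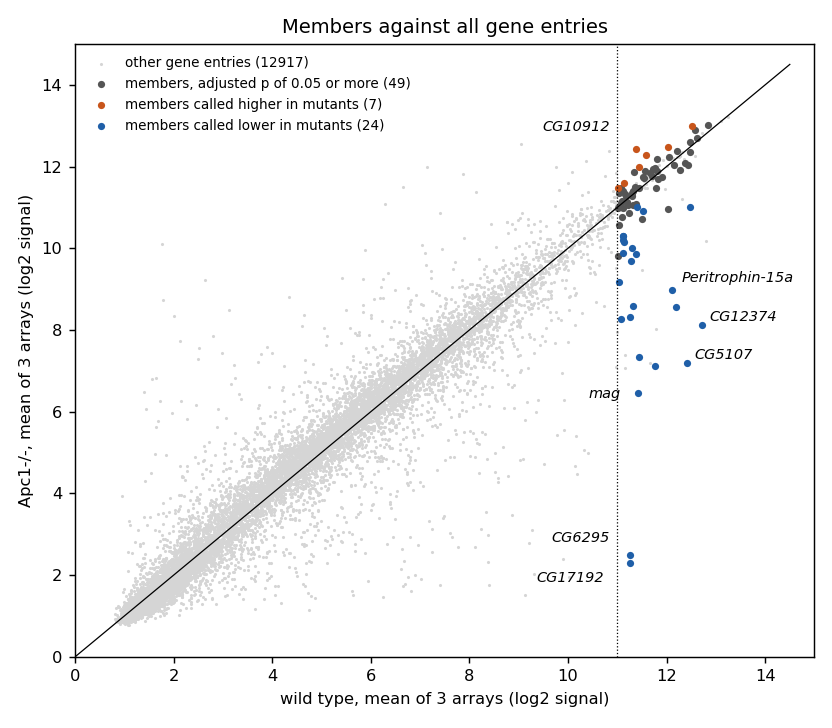
Mean log2 signal of 3 *Apc1* mutant arrays (y axis) against the mean of 3 wild-type arrays (x axis) for all gene entries (light grey), with members in dark grey, orange (higher in mutants, adjusted p under 0.05) or blue (lower). The dotted line marks the level of 11 that chose the members and the solid line equal values. Most members lie on the line, 24 blue points lie under it, and *CG17192* and *CG6295* stand alone at the bottom.

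In the comparison of the genotypes with limma, adjusted over all 12997 entries, 31 of the 80 members (38.8%) passed an adjusted p of 0.05, against 14.1% of all entries. Of these, 24 were lower in *Apc1* mutants (30%, against 5.32% of all entries) and 7 were higher (8.75%, against 8.8%). Beyond 2-fold, 19 were called (6.24% of all entries), 18 of them lower (3.03%) and 1 higher (3.21%), and 12 were lower by more than 4-fold (1.32% of all entries). The genotypes did not overlap in 51 members, 32 lower and 19 higher, against 35% of all entries (14.2% lower and 20.8% higher). Entries just under the members in brightness, with wild-type means of 9 to 11, gave 51 higher (10.5%) and 87 lower calls (17.9%) among 487. In all, 28.3% of these entries were called, beside 38.8% of the members. Of these entries, 54.4% had no overlap between the genotypes (30% lower and 24.4% higher), beside 63.8% of the members (40% lower and 23.8% higher). Of the 46 equally bright entries left out by family, 8 were called, all lower. When the choice was turned round and 77 genes were taken for a mutant mean of at least 11, 26 were called higher and 1 lower. That choice itself favours genes that are higher in mutants, so its split is a description as well. Members were also chosen on 1 wild-type array and compared on the others, a choice that still takes genes for a high wild-type level. Chosen on wild type array 1, 88 genes gave 27 calls, 4 of them higher, where 10.4% of all entries were called. Chosen on array 2, 80 genes gave 23 calls, 3 of them higher (11.7% of all entries), and chosen on array 3, 82 genes gave 23 calls, 5 of them higher (11.1%).

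All 3 lipases among the members fell, and *CG17192* and *CG6295* had the largest decreases of the 80. Lipase genes with a wild-type mean under 11 were not part of this count. The members *CG17192* and *CG6295* belong to the family of pancreatic-type lipases, which split dietary fat, and are neighbours on chromosome arm 3R. *CG17192* read 11.44, 11.50 and 10.83 on the wild-type arrays and 2.02, 2.35 and 2.47 on the mutant arrays, a difference of -8.97 (standard error, SE, 0.21, limma adjusted p = 1.9e-06). *CG6295* read 11.48, 11.17 and 11.14 against 2.41, 2.61 and 2.49, a difference of -8.76 (SE 0.13, adjusted p = 2.7e-07). The mutant means of this pair lay under the array medians, and the fold in signal, 502 for *CG17192* and 433 for *CG6295*, depends on the background correction at that level. *mag* (magro) encodes a secreted lipase that acts on dietary triglyceride and on cholesterol esters. It read 11.89, 11.12 and 11.25 in wild type and 7.61, 4.62 and 7.11 in mutants, a difference of -4.97 (SE 0.72, adjusted p = 0.00544). The low value of mutant replicate 2 set most of its spread, and no mutant array came near a wild-type array.

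The 8 digestive peptidases did not move as a block. *CG12374* and *CG17633* encode zinc carboxypeptidases, which trim residues from the end of a peptide, and *Bace* encodes an aspartic peptidase. *CG12374*, with the second highest wild-type mean of the members, read 12.75, 12.74 and 12.68 against 8.52, 7.53 and 8.32 in mutants, a difference of -4.60 (SE 0.25, adjusted p = 9.37e-05). *Bace* read 11.98, 11.77 and 11.53 against 7.39, 6.23 and 7.71, a difference of -4.65 (SE 0.36, adjusted p = 0.000388). *CG17633* read 11.45, 11.29 and 11.22 against 9.09, 7.85 and 8.82, a difference of -2.73 (SE 0.31, adjusted p = 0.0019). In all of these the wild-type arrays lay close together, and mutant replicate 2 was the lowest of the mutant arrays. The serine proteases among the members, *CG10472* and *yip7*, were less reduced. Jonah proteases and trypsins had been left out by the rule, so these genes do not stand for the class. *CG10472* read 11.90, 12.21 and 12.01 against 11.59, 10.34 and 10.99, and its difference of -1.07 missed the threshold (adjusted p = 0.0562). *yip7* differed by -0.34 (adjusted p = 0.118). The 3 members of the M1 aminopeptidase family, which remove residues from the amino end, lie next to each other on 3R and differed among themselves. *CG31233* read 11.25, 11.56 and 11.05 against 10.27, 9.56 and 9.26, a difference of -1.59 (SE 0.27, adjusted p = 0.0101). Its neighbours *CG31198* and *CG31343* differed by -0.17 and 0.17, less than the threshold allows (adjusted p = 0.458 and 0.597), and their genotypes overlapped.

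Among 4 members of the gut lining and its defence, 2 fell. PGRP-SC2 is an amidase that cuts bacterial peptidoglycan and so limits immune signaling in the gut. *PGRP-SC2* read 11.76, 11.43 and 11.12 in wild type and 7.86, 6.23 and 7.92 in mutants, a difference of -4.10 (SE 0.45, adjusted p = 0.00172). *Peritrophin-15a*, for a chitin-binding protein of the peritrophic matrix, read 12.22, 12.31 and 11.80 against 9.13, 8.89 and 8.94, a difference of -3.12 (SE 0.16, adjusted p = 8.99e-05). The other matrix member, the mucin gene *Muc68D*, read 11.25, 11.11 and 11.58 against 11.13, 11.83 and 11.26, so its genotypes overlapped (difference 0.10, adjusted p = 0.813). *CG5550*, which encodes a protein with a fibrinogen-like domain, read 11.50, 10.24 and 11.30 against 9.96, 9.24 and 10.22. Its genotypes did not overlap by a narrow margin, with wild type replicate 2 just above the highest mutant, and the difference of -1.20 did not pass (adjusted p = 0.0834). Of the 16 genes listed for the peritrophic matrix and mucins, members included, 4 rose and 4 fell, with a median of -0.01 (0.03 after quantile normalization) beside 0.01 for all entries. *Peritrophin-15b*, dimmer at 7.49 ± 0.76 (SD, n = 3) in wild type, fell by 2.67 (adjusted p = 0.00497), while *Mur29B*, not a member, rose by 1.29 (adjusted p = 0.00456). In a list of 16 antimicrobial and immune genes, 11 rose, 2 fell and the median was 3.74. *PGRP-SC2* was the only one of them bright enough in wild type to be a member, and 12 of the 16 had wild-type means under 5.

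All 3 members that bind or store lipid fell. *Acbp5*, for an acyl-CoA binding protein, read 12.64, 12.47 and 12.33 in wild type and 11.56, 10.43 and 11.03 in mutants, a difference of -1.47 (SE 0.27, adjusted p = 0.0142). *Lsd-2* encodes a perilipin, a coat protein of lipid droplets, and read 11.23, 11.43 and 11.26 against 9.84, 9.90 and 10.30 (difference -1.29, SE 0.15, adjusted p = 0.00243). *fabp*, for a fatty acid binding protein, differed by -0.93 (SE 0.14, adjusted p = 0.00631), from 11.13 ± 0.21 (SD, n = 3) to 10.19 ± 0.10. In this group and in *mag*, no mutant array reached the lowest wild-type array. Of 19 genes listed for lipid handling, 6 fell and none rose (limma, 9 at an unadjusted p under 0.05), with a median of -0.33. Besides the 4 members, these were the dim genes *Lip4* and *scu*. The fat body marker *Lsd-1*, for the other perilipin, read 7.96, 8.74 and 7.86 in wild type and 4.82, 4.90 and 5.88 in mutants. Of the 7 fat body markers, 2 were called lower, *Lsd-1* and *fit*, and 3 lay under 3 in both genotypes. The remaining markers, *to* and *apolpp*, differed by -0.05 and -0.92 and were not called (limma adjusted p = 0.949 and 0.494). The part of fat body tissue in the lipid group was not tested.

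Metal-binding members were split. Metallothioneins are small cysteine-rich proteins that hold copper and cadmium, and ferritin stores iron in a shell of heavy and light chains. *MtnA* was among the brightest members and held its level, with 12.56, 12.58 and 12.73 in wild type and 12.45, 12.91 and 12.72 in mutants. Its difference of 0.07 (adjusted p = 0.796) turned to -0.04 after median centring. *MtnC* fell by 1.23 (SE 0.27, adjusted p = 0.0268), from 11.27, 10.53 and 11.55 to 10.07, 9.61 and 9.97. The ferritin genes *Fer1HCH* and *Fer2LCH* lie side by side on 3R. The heavy chain gene *Fer1HCH* fell from 11.52 ± 0.07 (SD, n = 3) to 10.90 ± 0.10, by 0.62 (SE 0.11, adjusted p = 0.0122). The light chain gene *Fer2LCH* went the same way by less, with 11.38, 11.16 and 11.20 against 10.92, 10.78 and 10.89 (difference -0.38, SE 0.11, adjusted p = 0.0705). Over 9 genes listed for iron and metal handling, the 4 members included, 4 fell and none rose (limma, 6 at an unadjusted p under 0.05). The median of -0.38 was the value of the member *Fer2LCH*. Besides *MtnC* and *Fer1HCH*, the falls were those of *Mvl* and *ZnT63C*, which were no members.

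Of 9 members grouped under energy and amino acid metabolism, 5 fell and 1 rose. The group also took in the oxidoreductase genes *fiz* and *Akr1B*, so it is not a single pathway. *fiz*, for an oxidoreductase of the glucose-methanol-choline family, fell by 1.52 (SE 0.13, adjusted p = 0.000508), with 11.41, 11.33 and 11.43 in wild type and 10.05, 9.69 and 9.85 in mutants. *Idh*, for NADP-dependent isocitrate dehydrogenase, read 11.28, 11.13 and 11.02 against 10.32, 10.04 and 10.09, and fell by 0.99 (SE 0.13, adjusted p = 0.00355). *Argk1*, for arginine kinase, which buffers ATP, fell by 0.81 (adjusted p = 0.0102), and *Akr1B*, for an aldo-keto reductase, by 0.81 (adjusted p = 0.0331). The other probe set of *Akr1B*, which was dimmer, gave -0.57. *kdn*, for citrate synthase, the entry step of the TCA cycle, fell by 0.39 (SE 0.10, adjusted p = 0.0494). That call was lost in each fit that left out an array. *Gs2*, for glutamine synthetase, went the other way, from 11.22, 11.61 and 11.47 to 12.14, 11.92 and 11.88, a rise of 0.55 (SE 0.14, adjusted p = 0.0469). The remaining members of this group did not pass. *sesB*, for the ADP/ATP carrier of the inner mitochondrial membrane, read 12.35, 12.43 and 12.36 against 12.12, 12.13 and 12.05, which did not overlap (difference -0.28, adjusted p = 0.118). *ND-MLRQ*, whose title in the array annotation is NADH ubiquinone oxidoreductase MLRQ, differed by -0.12 (adjusted p = 0.501). *Tom7*, for a part of the outer membrane import pore, differed by -0.06 (adjusted p = 0.734). Among 81 genes listed for oxidative phosphorylation, 1 rose and 3 fell, with a median of -0.12. After median centring 5 fell, and after quantile normalization 3. Of the 81, 19 had wild-type means under 5, and 1 of the falls was a probe set shared by *ATPsyn-Cf6* and *pnt*. Among 20 genes listed for glycolysis and the TCA cycle, 2 rose and 3 fell, with a median of 0.11. The members *kdn* and the NADP-dependent *Idh* were among the falls. The mitochondrial carriers and porin had 1 rise and 2 falls among 9, the largest fall being that of *colt*, by 1.09 (adjusted p = 0.00272), which was no member.

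None of the translation and chaperone members was called. The 5 translation members were elongation factors and ribosomal proteins whose names in the deposited table escaped the family filter. *eEF1alpha1*, which brings aminoacyl-tRNA to the ribosome, read 12.40, 12.51 and 12.51 in wild type and 12.33, 12.29 and 12.44 in mutants (difference -0.12, adjusted p = 0.516). *RpL10*, listed as *Qm*, read 12.41, 12.41 and 12.62 against 12.61, 12.60 and 12.56 (difference 0.11, adjusted p = 0.566). *eEF2*, which moves the ribosome along, differed by 0.14, *RpS21* (listed as *oho23B*) by 0.10 and *sta*, for another small-subunit protein, by -0.02. None of the 5 was called by limma, and none had an unadjusted p under 0.05. Their median difference of 0.10 turned to -0.01 after median centring and was 0.04 after quantile normalization. In the list of 19 translation factors, none was called and 1 had an unadjusted p under 0.05. The chaperone members, *Hsc70-4* of the cytosol and *Hsc70-3* of the endoplasmic reticulum, differed by 0.04 and -0.13, with overlapping genotypes. None of the 15 genes listed for polyubiquitin and chaperones was called by limma, and 1 had an unadjusted p under 0.05. After median centring 1 was called lower, and after quantile normalization none was called.

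The 9 members for the cytoskeleton, signaling and traffic all kept mean values above 11 in mutants. *tsr*, for cofilin, which severs actin filaments, read 12.08, 12.05 and 11.93 in wild type and 12.53, 12.42 and 12.49 in mutants, a rise of 0.46 (SE 0.11, adjusted p = 0.0324). After median centring this was 0.35 (limma adjusted p = 0.117), and after quantile normalization 0.50 (adjusted p = 0.029). *Act5C*, for cytoplasmic actin, read 11.84, 11.86 and 11.71 against 12.22, 12.08 and 12.25 (difference 0.38, adjusted p = 0.0665), and *14-3-3epsilon*, for an adaptor that binds phosphorylated proteins, differed by 0.40 (adjusted p = 0.0514). Neither passed, although no mutant array overlapped wild type. *alphaTub84B*, for alpha-tubulin, and *Cam*, for calmodulin, differed by 0.19 each. *CycG*, for cyclin G, differed by -0.29, *Oda*, for ornithine decarboxylase antizyme, by -0.15 and the small GTPase gene *Arf1* by -0.02. In the list of 18 genes for the actin and tubulin cytoskeleton, 6 rose, *tsr* among them, and none fell (limma, 9 at an unadjusted p under 0.05). The median was 0.32. After median centring 2 were called higher, and after quantile normalization 5. The larger rises in that list were of genes below the members, *betaTub60D* by 2.75 (adjusted p = 0.000214) and *Act42A* by 2.37 (adjusted p = 0.00536).

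The 5 lysosomal members were not called by limma, and 1 of them, *Sap-r*, had an unadjusted p under 0.05. *Sap-r*, for a precursor of saposins, which help break down sphingolipids, read 11.10, 10.98 and 11.02 in wild type and 11.33, 11.34 and 11.36 in mutants (difference 0.31, adjusted p = 0.0888). *CtsB*, for the protease cathepsin B, differed by 0.19 and *Lamp1*, for a lysosomal membrane protein, by 0.08. The alpha-mannosidase genes *LManV* and *LManVI* are neighbours on 2L. *LManV* read 11.05, 11.32 and 10.70 against 11.22, 11.34 and 9.12, and *LManVI* 11.37, 11.50 and 10.65 against 11.64, 11.77 and 10.41. In each genotype replicate 3 was the lowest array for both genes, and the values of the genotypes overlapped. Without mutant replicate 3 the difference of *LManV* changed from -0.47 to 0.25.

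**Figure D2:**
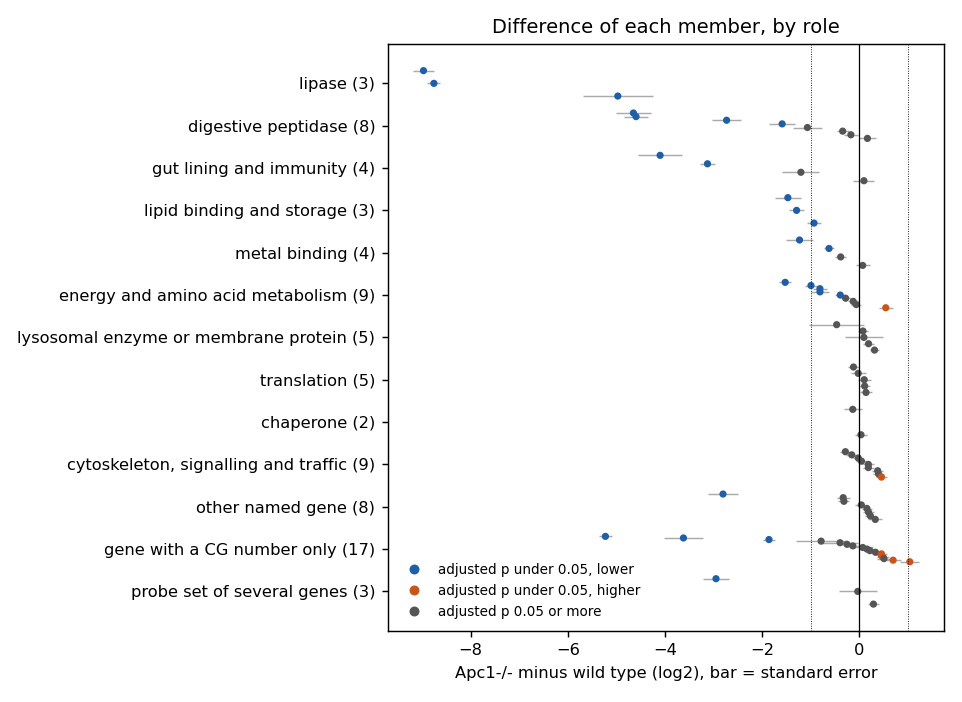
Difference of each of the 80 members, *Apc1* mutant minus wild type in log2 units (x axis), grouped by role (y axis, number of members in brackets). Each point is 1 member, the grey bar is its standard error from limma, blue and orange mark an adjusted p under 0.05, and dotted lines mark a 2-fold change. The 3 lipases lie at -4.97 or lower, while the 5 translation members lie between -0.12 and 0.14.

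Besides the enzymes and *CG5550* described above, 17 members are known by a CG number alone, and of these 3 fell and 5 rose. *CG5107* was the tenth brightest member and read 12.45, 12.21 and 12.62 in wild type and 7.12, 7.18 and 7.29 in mutants, a difference of -5.23 (SE 0.14, adjusted p = 3.03e-06). *CG4363* read 12.67, 11.44 and 12.46 against 9.24, 8.49 and 7.98, a difference of -3.62 (SE 0.41, adjusted p = 0.002). *CG9896* read 11.02, 11.09 and 10.999 against 9.40, 9.01 and 9.13, a difference of -1.86 (SE 0.13, adjusted p = 0.000264). The mutant arrays lay far under wild type in each, and closest together in *CG5107*. On the other side, *CG10912* was the only member called higher beyond 2-fold. It read 11.78, 11.02 and 11.34 in wild type and 12.41, 12.38 and 12.47 in mutants, a rise of 1.04 (SE 0.19, adjusted p = 0.0143). *CG9568* read 11.76, 11.28 and 11.71 against 12.28, 12.20 and 12.35, a rise of 0.70 (SE 0.15, adjusted p = 0.027). *CG6770* read 12.44, 12.42 and 12.68 against 13.00, 12.96 and 13.03, a rise of 0.48 (SE 0.12, adjusted p = 0.0374). In these genes the mutant arrays lay closer together than the wild-type arrays. *CG3662* and *CG3987* rose by 0.46 each (adjusted p = 0.0284 and 0.0408). Of the 9 that did not pass, *CG42397* at 0.51 (adjusted p = 0.0655) and *CG13315* at 0.33 (adjusted p = 0.0861) came nearest. *CG13315* read 12.62, 12.49 and 12.61 against 12.97, 12.92 and 12.83. The pair *CG8997* and *CG7953*, which lie 2 places apart on 2L, differed by -0.40 and -0.79 with overlapping genotypes, and in both mutant replicate 2 was the lowest array. The others, *CG3868*, *CG34330*, *CG34324*, *CG13482* and *CG12825*, lay between -0.25 and 0.22.

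Of 8 other named members, *whe* alone was called. It read 11.24, 10.36 and 11.65 in wild type and 8.33, 8.47 and 8.04 in mutants, a difference of -2.81 (SE 0.32, adjusted p = 0.002). The brightest of all members was *copiaGIP*, from the copia retrotransposon, a mobile element with many copies, with 12.78, 12.94 and 12.78 in wild type and 13.05, 13.02 and 13.00 in mutants. Its genotypes did not overlap, yet the difference of 0.19 did not pass (adjusted p = 0.293). *mex1*, a gene known for its expression in midgut enterocytes, read 11.30, 10.87 and 11.13 against 10.76, 10.76 and 10.78 (difference -0.33, adjusted p = 0.162). *pst* (pastrel), which acts against viruses, differed by -0.32, *Arc1*, for a capsid-forming protein, by 0.23, *Cys*, for a cystatin, by 0.33, *Gp150*, for a transmembrane protein, by 0.16 and *Tsp29Fa*, for a tetraspanin, by 0.04.

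For 3 members the probe set is listed under more than 1 gene, so its symbol alone does not say which gene the value belongs to. The probe set of *lcs* and *sesB* read 11.35, 10.81 and 11.61 in wild type and 8.33, 8.73 and 7.87 in mutants, a difference of -2.95 (SE 0.28, adjusted p = 0.000859). The probe set of *sesB* alone differed by only -0.28. By its RefSeq match the shared probe set lay 1 place from *whe* on the X chromosome, a position that is not that of *sesB*. *whe* differed by -2.81. *Fst* and *Scm* shared a probe set with 11.40, 10.10 and 11.51 against 10.94, 10.63 and 11.36 (difference -0.03, adjusted p = 0.968), and *CG5091* and *CG5096* shared one that differed by 0.29 (adjusted p = 0.124).

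**Figure D3:**
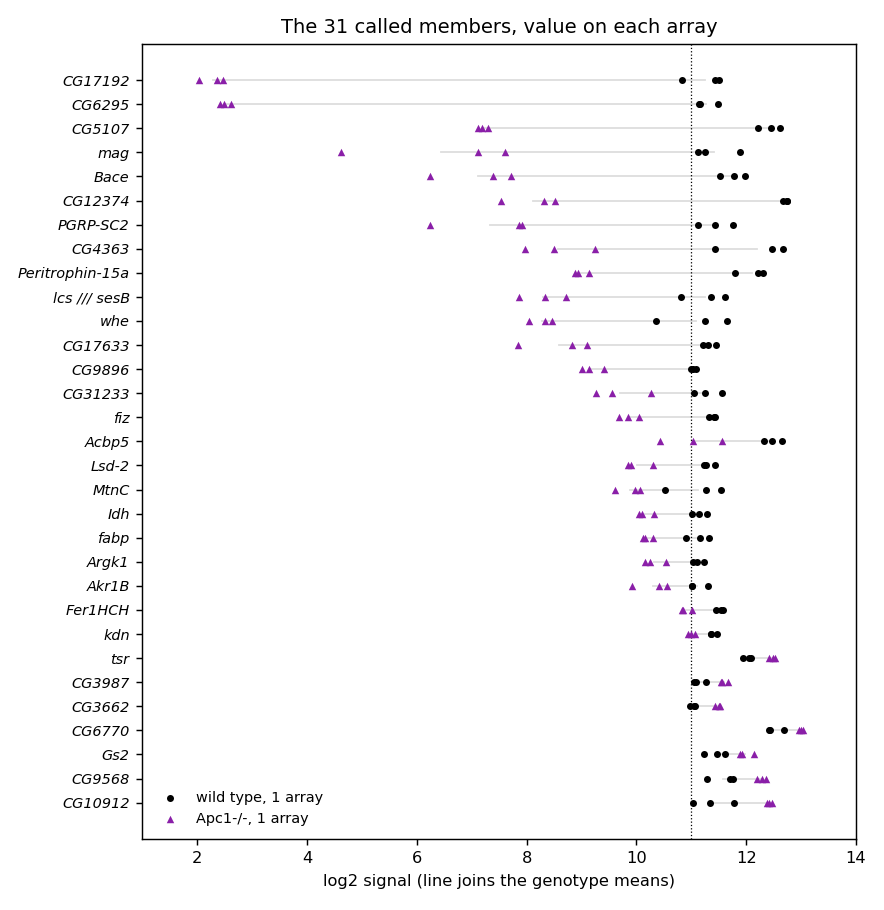
Log2 signal (x axis) of the 31 members with an adjusted p under 0.05 on each wild-type array (black circles) and each *Apc1* mutant array (purple triangles). Grey lines join the genotype means and the dotted line marks the level of 11 that chose the members. No called member has overlapping genotypes, and mutant replicate 2 of *mag* stands at 4.62, apart from 7.61 and 7.11.

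Of the 24 members called lower, 19 were called in each of the 6 fits that left out 1 array. *kdn* was called in none of them, *Akr1B* and *MtnC* in 1 each, *Fer1HCH* in 4 and *Acbp5* in 5. Of the 7 called higher, none was called in every fit. *CG10912* was called in 4 and *CG9568* in 3, *Gs2*, *CG6770* and *CG3987* in 1 each, and *tsr* and *CG3662* in none. The size of these differences moved little, from 0.41 to 0.49 in *tsr* and from 0.43 to 0.49 in *CG3662*. Leaving out an array reduced the number of calls to between 20 and 26 of the 80, and the number of higher calls to between 0 and 3, while the share of all entries called fell from 14.1% to between 7.09% and 11.7%. It was 3 without any 1 wild-type array, 1 without mutant replicate 2, and 0 without mutant replicate 1 or 3. Centring each array on its median moved the median difference of all entries from 0.01 to -0.10. With that centring 1 member was called higher, *CG10912*, and 25 were called lower. After quantile normalization 5 members were called higher and 23 lower, and with array weights 7 and 23.

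Replicate arrays did not vary in the same way for all members. The median SD over members was 0.14 in wild type and 0.12 in mutants, against 0.19 and 0.15 over all entries. An SD above 0.5 was found in 6 members in wild type and 14 in mutants. Mutant replicate 2 was the lowest mutant array in 44 of the 80 members (55%, against 35.6% of all entries) and in 13 of the 24 called lower. It was low in *mag*, *PGRP-SC2*, *Bace*, *CG12374*, *CG17633*, *Acbp5*, *CG10472*, *CG7953* and *CG8997*. The yolk protein gene *Yp1*, a marker of ovary and fat body, was also lowest on that array, with 9.06, 6.11 and 9.18 in mutants and 9.47, 11.01 and 9.97 in wild type. Wild type replicate 2 was low in *Fst* and *Scm*, *CG5550*, *CG4363*, *whe* and *MtnC*. That array also had the highest wild-type sums of the fat body, ovary and eggshell, and Malpighian tubule markers. What set these arrays apart was not tested.

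**Figure D4:**
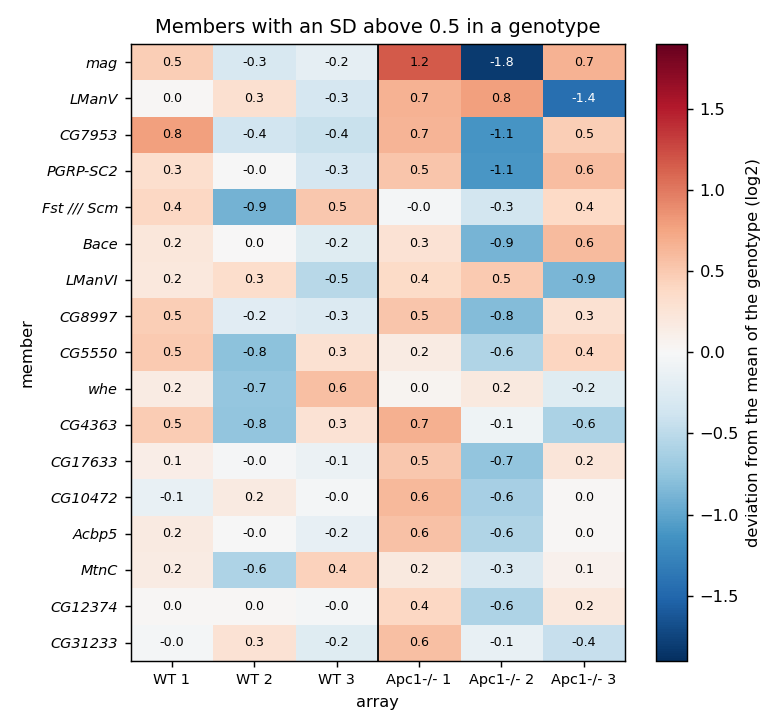
Deviation of each array from the mean of its genotype on the log2 scale (colour and printed value) for the 17 members with an SD above 0.5 in a genotype, 1 row per member and 1 column per array. Mutant replicate 2 is lowest in *mag*, *CG7953*, *PGRP-SC2* and *Bace*, and mutant replicate 3 in *LManV* and *LManVI*.

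Position in the genome was described because *Apc* lies on arm 3R and the mutant chromosome can carry linked differences. Arm 3R held 19 members, 7 called lower and 1 higher. The X chromosome held 13 (5 lower, 1 higher), 2L held 16 (3 and 3), 2R 14 (4 and 2) and 3L 18 (5 and 0). Over all entries, 13.3% to 15% were called on each of these arms. The lipase pair *CG6295* and *CG17192* lies 154 and 153 places from *Apc* in gene order, *Fer1HCH* 193 and *CG5107* 300. For these genes the allele and linked sequence of its chromosome cannot be told apart.

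The level of 11 that defines the members is arbitrary, and the genes near it were alike in brightness but not in their differences. The members nearest the limit were *CG3662* at 11.02, *CG5550* at 11.01 and the probe set of *Fst* and *Scm* at 11.01. Just outside were *CG17571* at 10.998, *Tctp* at 10.99 and *CG5399* at 10.98. In mutants *CG17571* had a mean of 7.96 and *CG5399* one of 11.84. All 3 wild-type arrays were at 11 or more in 64 of the 80 members.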

How the data were processed

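The authors deposited log2 values, 1 per probe set and array of the Affymetrix Drosophila Genome 2.0 array, made by RMA normalization and log2 transformation. The submitters' processing notes name MAS5 and RMA, and the software and background correction are not given in the sources used here. The deposited table also holds the authors' ratios and p-values, which were not used. Of 18952 probe sets, 183 controls and 4332 without a symbol were left out. For a gene with several probe sets the brightest over the 6 arrays was taken, which gave 12997 gene entries, with no filter on low values. All 80 members were named by accession through RefSeq (Release 6 table). Of their probe sets, 16 have an ID for shared sequence. The genotypes were compared with limma 3.58.1 in R 4.3.3 (lmFit, eBayes without trend) and Benjamini-Hochberg adjustment over all entries. A member was called at an adjusted p under 0.05. Tables and plots used Python 3.11.15, pandas 2.3.3, numpy 2.4.6 and matplotlib 3.10.9. On simulated data for this comparison, 179 of 200 bright genes changed by 2 (89.5%) and 7 unchanged genes were called, with 12997 genes in all. The number of arrays limits the precision.

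The members, roles and gene lists were chosen with earlier results of these data known. Named first were the 10 brightest members, the 10 largest called changes in each direction, the genes nearest the level of 11, up to 4 members of each list, family members that differed, and *Apc*. The other members, and the list genes and markers that are no members, were named after their values were seen. Alternatives were other probe set rules, centring, quantile normalization, a filter at a mean of 5, trend and robust estimation, array weights, a threshold of 0.01, a block for the replicate number, 1 array left out at a time, and other ways to choose members. The replicate numbers were checked for pairing. The value of 1 member, counted in its role group, is not reported here. RT-qPCR and imaging were not analysed here.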

Additional observations from a re-analysis of the deposited data

How the results depend on the processing

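The values below are counts of members called in total, higher, lower and beyond 2-fold, which were 31, 7, 24 and 19 as reported, beside a median difference of -0.13 and 49 mutant means of at least 11. Higher calls numbered 1 after median centring, 12 without genes of mean under 5 (30.6% of all entries tested were then called, against 14.1%), 12 with trend and robust estimation, and 0 at an adjusted p under 0.01, where 17 were called in all. Quantile normalization, array weights and other probe set rules left every one of these counts within 1.5 times. Without 1 array, 20 to 26 were called and 0 to 3 higher. With the replicate block, 26 were called, 25 of them shared, and 2 higher, and *CG5550* passed (adjusted p = 0.00986). Same-numbered arrays had correlations of deviations of 0.14, 0.20 and 0.02, and each array correlated best with its own number except mutant replicate 3, a hint from the data. The correlations were not all over 0.1, so the numbers were not taken to pair the samples. At a wild-type level of 10 (214 members) the counts were 71, 26, 45 and 40, with a median of 0.0268. At 12 (19 members) they were 7, 2, 5 and 5, with 14 mutant means of at least 11. Chosen on the mutant mean, 77 members had 26 higher, 1 lower, a median of 0.25 and 77 mutant means of at least 11. Chosen on all 6 arrays, 66 had 15, 12, 3 and 5 and a median of 0.13. Chosen on 1 wild-type array, higher calls were 4 on array 1 and 3 on array 2, and the median was 0.0257 on array 3. Differences that changed sign belonged to genes without a call. Among those chosen by the naming rule they were *MtnA* (-0.0384 centred, -0.0185 quantile), *Muc68D* (-0.0126 centred), *Hsc70-4* (-0.0732 centred, -0.0146 quantile) and *LManVI* (-0.0132 centred), and other members, such as *RpS21*, *Lamp1*, *Tsp29Fa* and *CG34324*, also turned negative after centring. Without 1 array, the ranges that crossed 0 included those of *MtnA* (-0.0368 to 0.192), *CG8997* (-0.662 to 0.0176), *Fst* and *Scm* (-0.482 to 0.223), *sta* (-0.119 to 0.138), *Muc68D* (-0.117 to 0.233), *Hsc70-3* (-0.263 to 0.0394), *Hsc70-4* (-0.0242 to 0.0916), *Arf1* (-0.0533 to 0.0177), *LManVI* (-0.166 to 0.528), *LManV* (-0.856 to 0.252) and *Apc* (-0.0963 to 0.317). The cause was not tested. Folds down to values near the array medians are limited by signal over background.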

Other observations

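Another 28 genes reached a mean of at least 11 in *Apc1* mutants without doing so in wild type, and 19 of them were called higher, 15 beyond 2-fold. They were chosen on the mutant level, which favours increases, so these are descriptions. Of the 28, 19 had a wild-type mean of at least 10 and 5 one under 9. *CG33346* read 7.36, 6.08 and 6.50 in wild type and 11.49, 11.73 and 11.30 in mutants, *CG32284* averaged 7.15 and 11.98, *CG12934* 6.28 and 11.09, *CG6839* 7.87 and 11.83, and *CG10910* 8.14 and 11.38. *CG6283* read 9.46, 8.53 and 9.17 against 12.52, 12.56 and 12.59. The lncRNA gene *lncRNA:CR32368* averaged 9.76 and 11.99. *Ssk* encodes a membrane protein of the smooth septate junctions that seal the gut epithelium, and read 10.86, 10.64 and 10.76 against 11.79, 11.69 and 11.85, a rise of 1.03 (limma adjusted p = 0.00186). *Atg8a*, for the ubiquitin-like protein of autophagosome membranes, read 10.36, 10.43 and 10.60 against 11.03, 11.02 and 11.01, a rise of 0.56 (adjusted p = 0.0185). Their genotypes did not overlap.

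A list of 10 redox defence genes held no member, and 4 of its genes fell and none rose (limma, 6 at an unadjusted p under 0.05), with a median of -0.39 beside 0.01 for all entries. *Prx2*, for a peroxiredoxin, fell by 0.96 (adjusted p = 0.0135), *Cat*, for catalase, by 0.84 (adjusted p = 0.0124), *Prx3*, for another peroxiredoxin, by 0.74 (adjusted p = 0.014) and *Trx2*, for thioredoxin, by 0.67 (adjusted p = 0.0167). The list of 16 secretory pathway genes held 5 falls and 2 rises. Among the falls were *TRAM* by 0.87 (adjusted p = 0.00423), *Sec61alpha* by 0.80 (adjusted p = 0.00449) and *Sec61beta* by 0.71 (adjusted p = 0.00917), parts of the channel that moves new secreted proteins into the endoplasmic reticulum. The largest change in that list was the rise of *p24-1* by 2.03 (adjusted p = 0.000283). Its member *Arf1* differed by -0.02.

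Of 10 visceral muscle markers, 1 fell and none rose, and of 10 enteroendocrine markers 6 rose and 1 fell, with summed log2 values of 58.9 to 62.3 in wild type and 66.0 to 69.2 in mutants. Of the 11 visceral muscle genes listed, 1 rose and 1 fell, and of 9 glycosidases 2 fell, *Gal* and *Ect3*. Of 5 progenitor, 4 hindgut and 5 haemocyte markers, 1 each rose and none fell (limma, 3, 2 and 2 at an unadjusted p under 0.05). In each of these lists 2 markers lay under 3 in both genotypes. The progenitor marker called was *esg*, which rose by 1.10 (adjusted p = 0.000752). Summed log2 values of the progenitor markers were 16.2 to 16.6 in wild type and 18.2 to 18.5 in mutants.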
